A study of Mus musculus with 4 samples.

Results

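The Notch genes examined here were 10 genes of mouse granulosa cells (GCs), the somatic cells around the oocyte. They were 4 receptors (Notch1, Notch2, Notch3 and Notch4), 2 Jagged ligands (Jag1 and Jag2) and 4 target genes (Hes1, Hey1, Hey2 and Heyl). They were taken by Ensembl identifier from a count table of 55385 genes, and all 10 were found and passed the filter on low counts that left 19259 genes for testing. GCs came from preantral follicles of Kunming mice aged 12 to 14 days, and all follicles had grown for 6 days in vitro in a medium with FSH. In 2 libraries (Control) the medium held no neurotrophin-4 (NT-4), a ligand of the receptor TRKB, and in the other 2 (NT4) it was supplemented with NT-4. Libraries are named by group and number, and the labels do not say whether they came from separate cultures. The study describes the GC samples of each group as coming from independent experiments. The p-values rest on the spread between these 2 libraries per group, moderated by that of all genes tested.

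Notch receptors are cell-surface proteins that bind Jagged or Delta-like ligands on a neighbouring cell. Binding lets an ADAM protease and then γ-secretase cut the receptor, and the freed intracellular domain joins the DNA-binding protein RBPJ in the nucleus. There it switches on genes of the Hes and Hey families, which encode basic helix-loop-helix repressors. In the mouse ovary, Notch2 is a receptor known from GCs, Jag1 is known from oocytes, and Notch1, Notch4 and Dll4 are known from blood vessels.

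Total counts were 49520092 to 78704020 per library, or an estimated 12380023 to 19676005 read pairs, at about 4 counts for 1 read pair. Levels are given as CPM, counts scaled to the library total, in which 3 read pairs are 0.152 to 0.242 CPM by library. The granulosa label was checked against marker lists. All 10 granulosa markers had a mean of at least 1 CPM, and they summed to 11790 (Control 1), 14881 (Control 2), 10040 (NT4 1) and 16385 CPM (NT4 2). The 10 theca and stroma markers summed to 1258.3 to 1393.2 CPM in 3 libraries and 1832.2 CPM in NT4 1. The 9 mural markers (pericyte and smooth muscle) summed to 351 to 396 CPM over the Control libraries and 457 to 501 CPM over the NT4 libraries. Of these, Acta2 gave 212 to 312 CPM and Tagln 96.1 to 130 CPM by library, while Rgs5 was at most at 0.14 CPM. Summed oocyte markers (10 genes) were at 66.3 to 99.8 CPM and endothelial markers (10 genes) at 30.6 to 43.8 CPM, of which Cdh5 alone gave 16.4 to 25.5 CPM, while Pecam1 stayed at or below 1.92 CPM. The 8 surface epithelium markers summed to 34.6 to 44.0 CPM, with Krt19 and Upk1b at 0 throughout, and the 6 macrophage markers to at most 2.78 CPM, with Tyrobp at 0. In bulk RNA, fewer cells of a type and less RNA per cell cannot be told apart.

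Promoters are shown first, because the target Hey2 and the ligand Jag2 differed together between libraries and Notch2 was the main receptor. RefSeq sequences on GRCm38.p6, from 250 bases before to 50 bases after the start site, were matched for 7 members (Notch1, Notch2, Notch3, Notch4, Jag1, Jag2 and Hey2). No promoter sequence was available for the targets Hes1, Hey1 and Heyl. The promoter of Hey2 lies at chr10:30842734-30843033 on the minus strand, that of Jag2 at chr12:112929446-112929745 on the minus strand and that of Notch2 at chr3:98013288-98013587 on the plus strand. Each is written 5′ to 3′ along its gene, and capitals mark the core motif of RBPJ, TGGGAA, on either strand.
Hey2: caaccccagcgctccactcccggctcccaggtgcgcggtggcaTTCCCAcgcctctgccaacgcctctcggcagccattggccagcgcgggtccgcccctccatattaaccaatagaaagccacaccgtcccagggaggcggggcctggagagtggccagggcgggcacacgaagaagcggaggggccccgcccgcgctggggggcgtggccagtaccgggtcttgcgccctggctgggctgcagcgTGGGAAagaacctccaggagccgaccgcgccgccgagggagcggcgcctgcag
Jag2: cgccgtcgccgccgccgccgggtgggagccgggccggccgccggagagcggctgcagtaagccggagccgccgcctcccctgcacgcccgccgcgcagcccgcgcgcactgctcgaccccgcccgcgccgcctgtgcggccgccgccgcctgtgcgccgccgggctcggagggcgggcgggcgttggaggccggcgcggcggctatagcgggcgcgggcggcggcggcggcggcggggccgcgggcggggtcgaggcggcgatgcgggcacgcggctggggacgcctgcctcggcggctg
Notch2: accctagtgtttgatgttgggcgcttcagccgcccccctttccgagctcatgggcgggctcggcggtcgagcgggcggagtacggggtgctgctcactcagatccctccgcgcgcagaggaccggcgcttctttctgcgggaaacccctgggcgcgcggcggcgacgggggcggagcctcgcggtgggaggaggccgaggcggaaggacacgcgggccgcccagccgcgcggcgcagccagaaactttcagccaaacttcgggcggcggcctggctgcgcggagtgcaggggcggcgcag

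Among these 7, the RBPJ core was present only in the promoter of Hey2, the single target gene searched, at 2 places. One lies on the minus strand with its first base 207 bases before the start site (−207), and the other on the plus strand from −3. Of 32851 promoters of the same length, 25.6% hold the core. The N-box CACNAG, a motif known for Hes proteins, was searched on both strands as well and lay in the promoters of Notch1, Notch2 and Notch3, against 42.5% of all promoters. In Notch1 a pair of its matches overlap each other at the start site. The E-box CACGTG was in none of the 7 and in 7.15% of all promoters. A match describes these letters only.

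The first question was which members GCs expressed. Levels between genes were compared as CPM per kilobase of merged exons. Hey2 stood first at 19.1 ± 5.52 CPM per kb, followed by Heyl at 15.5 ± 1.27, Notch2 at 10.6 ± 1.08 and Hes1 at 4.19 ± 0.858 (SD over 4 libraries). Jag1 had 2.84 ± 0.341 CPM per kb, Jag2 1.61 ± 0.471, Notch3 0.813 ± 0.138, Hey1 0.687 ± 0.104, Notch1 0.478 ± 0.0595 and Notch4 0.0449 ± 0.0339. The libraries of Hey2 and Heyl overlapped, as did those of Notch3 and Hey1. All other neighbours in this order were apart in every library. Per kilobase of the longest transcript instead, Hey2 (24.4 to 45.4) lay above Heyl (15.6 to 19.1) in every library, and Hey1 passed Notch3. By that length Jag1 overlapped Jag2, and Notch1 overlapped both Notch3 and Hey1.

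**Figure D1:**
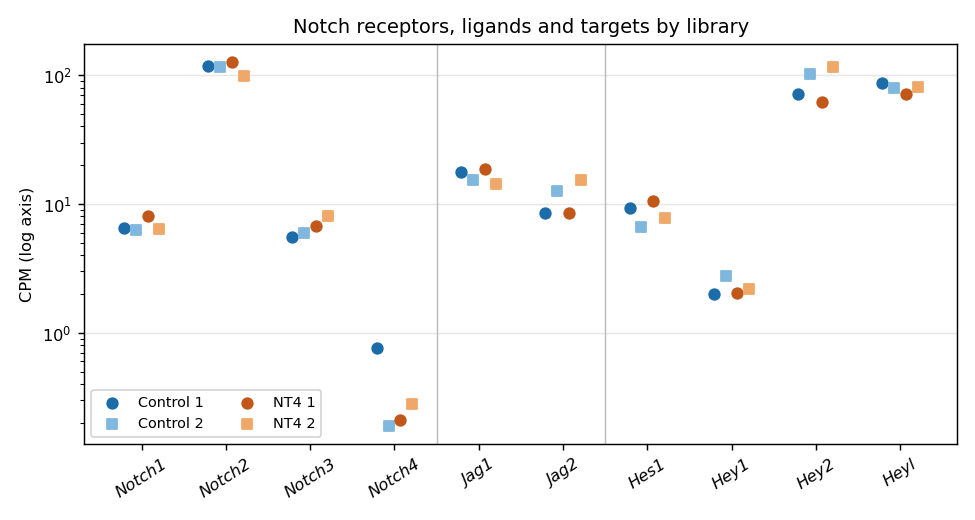
Level of each member in CPM (log axis) in each library, with Control in blue, NT4 in orange, circles for number 1 and squares for number 2. Notch2 lay between 98.6 and 126 CPM, while Notch4 was under 1 CPM in every library.

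Among the receptors, Notch2 predominated. Notch2 (ENSMUSG00000027878, GRCm38 chromosome 3, 98013527 to 98150361) was measured at 118.5 (Control 1), 116 (Control 2), 126 (NT4 1) and 98.6 CPM (NT4 2). Both the highest and the lowest of these were NT4 libraries, so the groups overlapped. It held 89.9% and 90.0% of the summed receptor level per kb in Control 1 and Control 2, and 89.1% and 86.1% in NT4 1 and NT4 2. Notch3, known from vascular mural cells (ENSMUSG00000038146, chromosome 17, 32120820 to 32166852), was measured at 5.55 (Control 1), 5.93 (Control 2), 6.76 (NT4 1) and 8.07 CPM (NT4 2). It was the single member with both NT4 libraries above both Control libraries. Its share of the receptor level was 5.61% and 6.14% in Control 1 and Control 2 and 6.37% and 9.39% in NT4 1 and NT4 2.

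Notch1 (ENSMUSG00000026923, chromosome 2, 26457903 to 26516663), the founding receptor of the family and a regulator of vessel sprouting, was measured at 6.54 (Control 1), 6.24 (Control 2), 8.07 (NT4 1) and 6.39 CPM (NT4 2). NT4 1 stood above the rest and NT4 2 lay between the Control libraries. Its exons share 1068 bases with 0610009E02Rik on the other strand, which had 38 to 74 counts per library against 324 to 503 for Notch1, and the libraries kept strand, though whether counting used it is not stated. Summed with that gene, the log2 fold change of NT4 over Control was 0.12 in place of 0.20. Notch4, an endothelial receptor (ENSMUSG00000015468, chromosome 17, 34564268 to 34588503), had 38 (Control 1), 14 (Control 2), 13 (NT4 1) and 22 counts (NT4 2). These are 0.767, 0.190, 0.210 and 0.280 CPM, of which Control 1 alone was well above the level of 3 read pairs. The groups overlapped, with both NT4 libraries between the Control libraries.

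**Figure D2:**
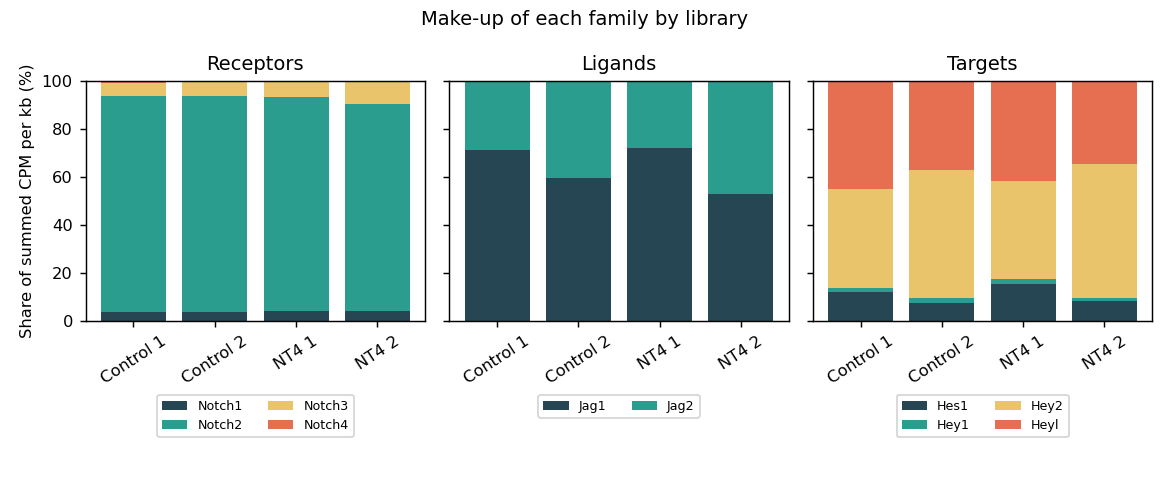
Share (%) of the summed CPM per kb within receptors, ligands and targets, 1 bar per library. Notch2 filled 86.1% to 90.0% of the receptor bar, while Jag1 against Jag2 and Hey2 against Heyl varied with the library.

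Both ligands of the Jagged family were expressed. Jag1 (ENSMUSG00000027276, chromosome 2, 137081456 to 137116644) was measured at 17.7 (Control 1), 15.4 (Control 2), 18.7 (NT4 1) and 14.4 CPM (NT4 2). Jag2 (ENSMUSG00000002799, chromosome 12, 112907819 to 112929776) was measured at 8.50 (Control 1), 12.6 (Control 2), 8.58 (NT4 1) and 15.2 CPM (NT4 2). The libraries numbered 1 were thus low and those numbered 2 high for Jag2, in either group, and the reverse held for Jag1. The groups overlapped for both ligands. Jag1 held 71.3% and 72.3% of the summed Jagged level per kb in Control 1 and NT4 1 but 59.5% and 53.0% in Control 2 and NT4 2. In NT4 2 the leading ligand depended on the length used, with Jag1 at 46.2% by the longest transcript and 48.6% without division by length.

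Hey2 and Heyl were the main target genes. Hey2, a repressor also known from heart and vessel development (ENSMUSG00000019789, chromosome 10, 30832359 to 30842801), was measured at 71.3 (Control 1), 102 (Control 2), 62.2 (NT4 1) and 116 CPM (NT4 2). Heyl (ENSMUSG00000032744, chromosome 4, 123233556 to 123249875), a relative of Hey2, was measured at 86.5 (Control 1), 79.9 (Control 2), 70.8 (NT4 1) and 80.6 CPM (NT4 2). Hey2 was high in both libraries numbered 2, while the highest and the lowest Heyl values were both in libraries numbered 1. By share of the summed target level per kb, Hey2 held 41.3% (Control 1), 53.1% (Control 2), 40.8% (NT4 1) and 55.5% (NT4 2), and Heyl 45.0%, 37.2%, 41.7% and 34.7%.

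Hes1, the Notch target of widest use across tissues (ENSMUSG00000022528, chromosome 16, 30064384 to 30067796), was measured at 9.27 (Control 1), 6.59 (Control 2), 10.6 (NT4 1) and 7.73 CPM (NT4 2). It was higher in both libraries numbered 1, opposite to Hey2. Hey1 (ENSMUSG00000040289, chromosome 3, 8663359 to 8667256), which pairs with other helix-loop-helix factors as a repressor, was the lowest target, measured at 2.0 (Control 1), 2.74 (Control 2), 2.05 (NT4 1) and 2.19 CPM (NT4 2). Both NT4 libraries of Hey1 lay between the Control libraries, and those of Hes1 overlapped with Control.

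The comparison by NT-4 asked whether any of these genes differed in GCs of supplemented follicles. None of the 10 members passed an adjusted p of 0.05 in edgeR's quasi-likelihood test, where 0% of the 19259 genes passed. No member had an unadjusted p under 0.05 either, against 1.99% of all genes, and none met the study's criterion of that p with a fold above 2 or under 0.5, against 1.08%. The DESeq2 Wald test and edgeR's exact test called 0 members at an adjusted p of 0.05 too, where they called 0.313% and 0.306% of all genes. The members' median log2 fold change of NT4 over Control was 0.04, with 6 above 0 and 4 below, beside 0.0045 over all genes tested. Notch3 was the 1 member whose NT4 libraries both lay above Control, against 11.9% of all genes, and 0 lay below, against 14.6%. With 2 libraries against 2, an exact permutation of the groups cannot give a two-sided p below 0.333.

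Group means are given with Control first. Among the abundant members, Notch2 had means of 117 ± 1.87 CPM (Control) and 112 ± 19.5 CPM (NT4), Hey2 86.8 ± 22.0 and 89.0 ± 38.0 CPM, and Heyl 83.2 ± 4.68 and 75.7 ± 6.90 CPM (SD, n = 2). Jag1 stood at 16.6 ± 1.59 and 16.6 ± 3.06 CPM and Jag2 at 10.5 ± 2.87 and 11.9 ± 4.71 CPM. For the targets of lower level, Hes1 had 7.93 ± 1.89 and 9.16 ± 2.02 CPM and Hey1 2.37 ± 0.523 and 2.12 ± 0.0964 CPM. The spread between the NT4 libraries was the wider of the groups for 8 of the 10 members, and the narrower for Hey1 and Notch4. Each SD rests on 2 libraries, and this count was not set against all genes, so it describes these libraries only. Of the remaining receptors, Notch1 had 6.39 ± 0.216 and 7.23 ± 1.19 CPM, Notch3 5.74 ± 0.264 and 7.41 ± 0.925 CPM and Notch4 0.479 ± 0.408 and 0.245 ± 0.0493 CPM.

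The interval of each difference shows what these libraries could resolve. For Notch2 the log2 fold change was −0.04 (SE 0.15, 95% interval −0.41 to 0.33), and for Heyl it was −0.11 (SE 0.13, −0.45 to 0.22). Both intervals lie within a fold of 2 in either direction, as do those of Jag1 (0.02, −0.46 to 0.50), Notch1 (0.20, −0.34 to 0.73) and Hes1 (0.23, −0.43 to 0.88). Those of Hey2 (0.06, −0.81 to 0.93) and Hey1 (−0.14, −0.95 to 0.66) end just inside it. For Jag2 (0.20, −0.70 to 1.10) and Notch4 (−0.92, −3.17 to 1.34) a change of 2-fold lies inside the interval. Notch3 had the smallest unadjusted p of the members in edgeR's test, 0.125, with an adjusted p by edgeR of 0.9999, and a log2 fold change of 0.39 (SE 0.22, −0.15 to 0.93). Over all genes tested, 9819 of 19259 had a log2 fold change above 0, and 11.9% had both NT4 libraries above Control. Beside Notch3, all 10 theca and stroma markers had a log2 fold change above 0, 5 of 10 with both NT4 libraries above Control. So did 7 of the 8 mural markers tested, 3 of 8 with both NT4 libraries above Control. These 3 were Myh11, Acta2 and Tagln, while Pdgfrb, Cspg4, Des, Kcnj8 and Abcc9 overlapped between groups. The part of these markers in the level of Notch3 was not tested. Leaving out 1 library turned the sign of Notch2 (to 0.11 without NT4 2), Notch4 (to 0.38 without Control 1), Jag1, Jag2, Hes1, Hey1 and Hey2 (to −0.18 without Control 1 and −0.48 without NT4 2).

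**Figure D3:**
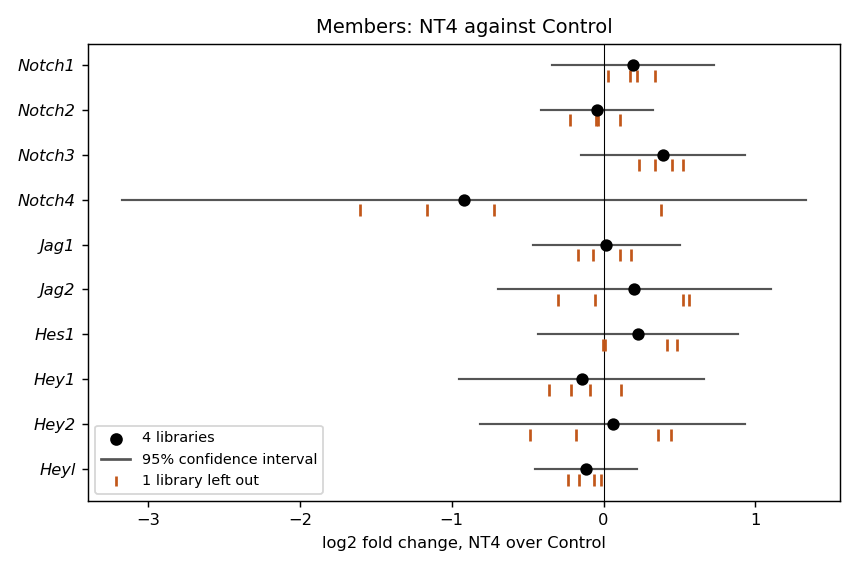
Log2 fold change of NT4 over Control for each member (black point) with its 95% confidence interval (line), and the value with each library left out in turn (orange ticks). Every interval spans 0, from the narrow ones of Heyl and Notch2 to −3.17 to 1.34 for Notch4.

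Both groups hold a library numbered 1 and a library numbered 2, and the labels do not state what the number marks. In 7 of 10 members the libraries numbered 2 both lay on one side of those numbered 1. Hey2, Jag2 and Hey1 were higher in the number 2 libraries, a side taken by 21.8% of all genes, and Notch1, Notch2, Jag1 and Hes1 were lower, the side of 26.7%. Differences between libraries are given in log2 CPM after TMM scaling with a prior count of 2, so they differ slightly from those of the CPM printed above. For Hey2 number 2 minus number 1 came to 0.54 within Control and 0.94 within NT4. For Jag2 it was 0.58 and 0.86, and for Hes1 −0.47 and −0.41. For Notch2 it was −0.01 within Control and −0.32 within NT4, and for Notch1 −0.05 and −0.30, so the place of both rests mainly on the NT4 libraries. Taken within a number, NT4 minus Control was −0.19 (number 1) and 0.21 (number 2) for Hey2, so its direction turned with the number. The direction also turned for Notch2 (0.10 and −0.20), Jag1 (0.09 and −0.07), Hey1 (0.05 and −0.29) and Heyl (−0.28 and 0.04). Notch4, at low counts, turned as well (−1.72 and 0.52). NT4 minus Control kept 1 direction for Hes1 (0.20 and 0.26), Notch3 (0.29 and 0.47), Notch1 (0.31 and 0.06) and Jag2 (0.02 and 0.31). Of the granulosa markers, 8 of 10 were higher in both number 2 libraries and 2 lower, while 6 of the 9 oocyte markers tested and 5 of 10 theca and stroma markers were lower in both, and none of either list higher. The part of these markers in the levels of Hey2, Jag2, Jag1, Hes1, Notch1 and Notch2 was not tested.

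**Figure D4:**
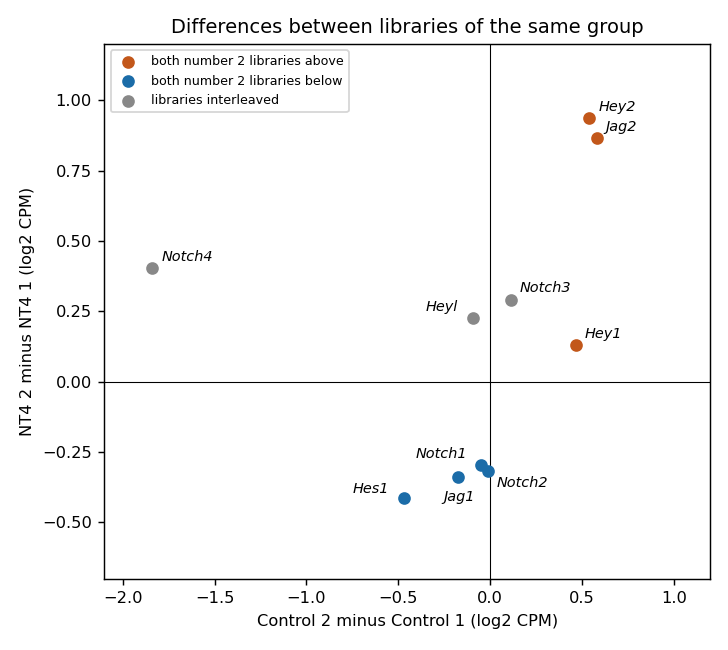
Difference of TMM-scaled log2 CPM between the 2 libraries of a group for each member, Control on the horizontal and NT4 on the vertical axis. Hey2 and Jag2 lie far into the upper right, and Hes1 and Jag1 in the lower left.

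Genes most like a member were taken as those with the smallest root mean square difference of centred, TMM-scaled log2 CPM over the 4 libraries, among 10057 genes with a mean of at least 10 CPM. For Hey2 they were Hsd3b1, a steroidogenic enzyme (0.0209), St3gal4 (0.0266) and Gch1 (0.0413), beside a median of 0.384 over the genes compared. Hsd3b1 was at 2770, 3880, 2440 and 4550 CPM in Control 1, Control 2, NT4 1 and NT4 2. For Notch2 they were Fam83h (0.00598), Rgs2 (0.00809) and Msl2 (0.0108), beside a median of 0.174. For Jag1 they were Syde1 (0.00883), Map3k20 (0.00948) and Smarcad1 (0.00955), beside a median of 0.188. Only 4 libraries stand behind each profile.

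The rest of the pathway was then described by role, in 8 lists with 58 genes, of which 54 were tested. None passed an adjusted p of 0.05 in edgeR's quasi-likelihood test. At an unadjusted p under 0.05 there were 2 higher (Dlk1 and Dtx2) and 1 lower (Psenen), beside 1.99% of all genes, and the median log2 fold change was 0.01. The classical Delta-like ligands were scarce, with Dll1 and Dll3 at most at 0.68 and 0.44 CPM and Dll4 at most at 0.22 CPM (named, like Lfng, Mfng, Maml2 and Maml3, after their values were seen). Of the 5 glycosyltransferases, Lfng and Mfng were at most at 0.516 and 0.419 CPM. Pofut1 and Poglut1, which add sugars to Notch, had Control means of 54.3 ± 3.82 and 54.2 ± 2.04 CPM beside NT4 means of 51.6 ± 0.395 and 54.3 ± 2.40 CPM (SD, n = 2). The protease Adam10 had means of 212 ± 3.19 (Control) and 208 ± 20.0 CPM (NT4), and the γ-secretase subunit Ncstn 209 ± 5.76 and 208.5 ± 0.649 CPM (SD, n = 2).

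Dlk1, a non-canonical ligand also known from stromal and steroidogenic cells, differed most of the pathway genes named. It was measured at 0.989 (Control 1), 0.773 (Control 2), 3.48 (NT4 1) and 5.20 CPM (NT4 2), so the groups did not overlap. The log2 fold change of 2.33 (SE 0.36) had an unadjusted p of 0.00104 and an adjusted p of 0.749 in edgeR's quasi-likelihood test. It was the 1 pathway gene to meet the study's criterion, which 1.08% of all genes met. The DESeq2 Wald test gave an adjusted p of 0.000549 and edgeR's exact test 0.00136, and over all alternatives the adjusted p ran up to 0.9989. Beside Dlk1, theca and stroma markers had a log2 fold change above 0 in 10 of 10, against 9819 of the 19259 genes tested. The part of these markers in the level of Dlk1 was not tested.

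Psenen, which encodes the γ-secretase subunit PEN-2, was measured at 40.0 (Control 1), 44.6 (Control 2), 21.5 (NT4 1) and 30.0 CPM (NT4 2). The log2 fold change of −0.69 (SE 0.21) had an unadjusted p of 0.0208 and an adjusted p by edgeR of 0.9999. Its exons overlap U2af1l4 by 119 bases and Gm49396 by 111 bases on the other strand, and summed with them it was at −0.51. The other 9 proteases and γ-secretase subunits had log2 fold changes of −0.20 to 0.32. Dtx2, a ubiquitin ligase of the Deltex family, was measured at 22.8 (Control 1), 25.8 (Control 2), 31.8 (NT4 1) and 35.0 CPM (NT4 2), a log2 fold change of 0.48 (SE 0.16) with an adjusted p by edgeR of 0.9999.

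Nuclear factors of the pathway act on the target genes themselves. The 8 genes of the RBPJ complex and its coactivators had log2 fold changes of −0.18 to 0.11, among them Ep300 (−0.14), a histone acetyltransferase, and Snw1 (0.08), whose exons overlap Slirp on the other strand by 2914 bases. Within groups the coactivator Maml3 ranged more widely, from 9.99 to 17.4 CPM in Control and from 10.3 to 18.9 CPM in NT4, and Maml2 from 10.7 to 19.5 CPM in NT4. Both genes were lower in the libraries numbered 2 than in those numbered 1, as 5 of these 8 genes were, against 26.7% of all genes. The 10 corepressors ran from −0.19 (Ncor1) to 0.35. The ubiquitin ligases that prepare ligands for signalling, Mib1 and Mib2, were at −0.15 and 0.04, and those acting on receptors, Nedd4 and Itch, both at −0.05. The ligand Dlk2 was at −0.17. Of the other targets, Hes6 was measured at 19.9 (Control 1), 18.7 (Control 2), 22.1 (NT4 1) and 25.6 CPM (NT4 2) (log2 fold change 0.33, SE 0.17), with an adjusted p by edgeR of 0.9999. Nrarp had 0.0808 and 0.203 CPM in Control 1 and Control 2 and 0 and 0.280 CPM in NT4 1 and NT4 2, too low for a fold. Hes2, Hes3 and Hes5 were without a count in the 4 libraries, a count of 0 that allows a level of up to 0.152 to 0.242 CPM by library.

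**Figure D5:**
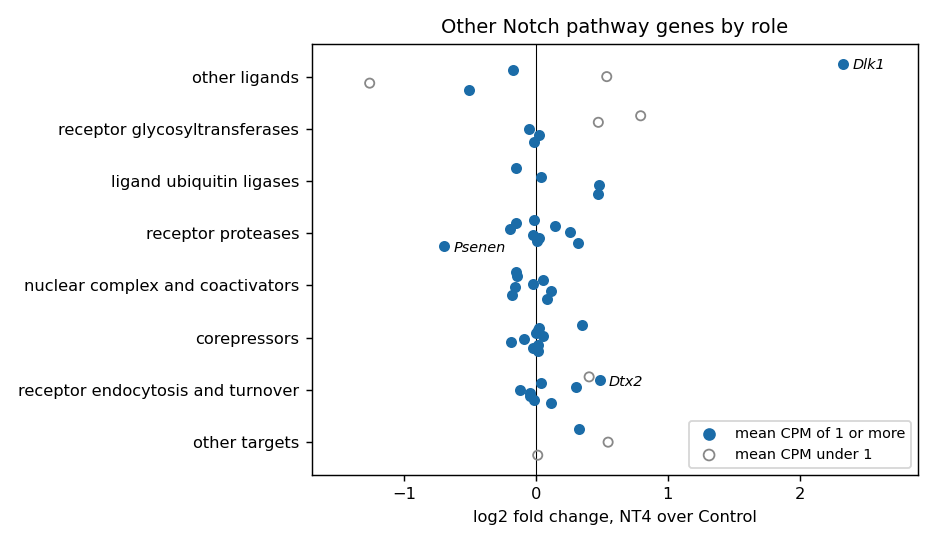
Log2 fold change of NT4 over Control for 54 other pathway genes by role, with open circles for a mean under 1 CPM. Dlk1 stands apart at 2.33 and Psenen is lowest of the filled points at −0.69.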

How the data were processed

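RNA of GCs was sequenced in 4 libraries, 2 per group. By their methods, the authors removed reads with adaptors or poor bases by Cutadapt, mapped the rest with HISAT2 (Ensembl v99, with mm10 as the build per the labels) and estimated levels with StringTie and ballgown. Libraries were made with dUTP-marked second strands removed by UDG, which keeps strand. The deposited values are estimated counts per gene in whole numbers, not normalized. How the StringTie estimates became counts, and whether counting used strand, is not given in the sources used here. Of counts from 1 to 12, 45.4% to 46.2% per library were exactly 4, 8 or 12. Lengths and coordinates came from GENCODE M21.

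Counts were tested in R 4.3.3 with edgeR 4.0.16 (quasi-likelihood, TMM, default filter, group alone, two-sided, Benjamini-Hochberg over 19259 genes). TMM factors were 0.9798 to 1.014, and a prior count of 2 was added for log2 CPM. Intervals are 95% from the same fit. The procedure was tested on simulated data. Named genes were the members, the 2 most abundant genes per pathway list and any list gene with an unadjusted p under 0.05 and separate groups. 1 gene that this rule names is not reported here. Alternatives were DESeq2 1.42.0, edgeR's exact test, other scalings and filters, counts divided by 4, a replicate block and leaving out each library. Members, lists and alternatives were chosen with earlier results of these data known. Floors and intervals of counts cover counting error only.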

Additional observations from a re-analysis of the deposited data

How the results depend on the processing

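No member was called, and none met the study's criterion, under any of the 13 alternatives, of which 2 left Notch4 untested. The members' median log2 fold change, 0.04, was 0.018 with library totals, 0.055 when genes needed 1 CPM or more in 2 libraries and 0.055 with counts divided by 4 (the 2 without Notch4), and −0.052 to 0.061 with a library left out. Values of named genes kept direction and call 312 times, changed sign 24 times and gained a call 2 times (Dlk1). With the longest transcript as the length, Hey2 held 57.8% of the target level. Library totals turned Jag1 to −0.0010, Ncstn to −0.00051 and the median of other pathway genes to −0.0057. That median was −0.022 to 0.025 with a library left out, and 1 to 2 of these genes met the criterion. The DESeq2 Wald test and edgeR's exact test each called 1 pathway gene, Dlk1, beside 0.313% and 0.306% of all genes.

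With a library left out, members that changed sign ranged from −0.22 to 0.11 (Notch2), −1.60 to 0.38 (Notch4), −0.17 to 0.18 (Jag1), −0.30 to 0.56 (Jag2), −0.0035 to 0.48 (Hes1), −0.36 to 0.11 (Hey1) and −0.48 to 0.45 (Hey2). Pathway genes did so for Dlk2 (−0.51 to 0.26), Pofut1 (−0.13 to 0.030), Poglut1 (−0.043 to 0.077), Mib2 (−0.079 to 0.14), Adam10 (−0.10 to 0.065), Ncstn (−0.017 to 0.058), Ep300 (−0.33 to 0.013), Snw1 (−0.021 to 0.20), Itch (−0.16 to 0.052) and Nedd4 (−0.13 to 0.018). The cause was not tested. Such a fit takes the lone library to have the spread of the remaining group.

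Same-numbered libraries deviated together at a Pearson coefficient of 0.14 over 19259 genes and 0.306 over 10491 genes with a mean log2 CPM above 3, but 2 numbers do not establish a pairing. With the number as a replicate block the members' median was 0.011 and no call changed. Depth limits Notch4, Dll4 and Nrarp, which were near or under the level of 3 read pairs except for Notch4 in Control 1. The sums of Psenen and Notch1 with overlapping genes were chosen after the data were seen.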
